A study of Homo sapiens with 4 samples.

Results

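The sarcoglycans and the dystroglycan complex were followed through depletion of TARBP2 in a human breast cancer line. The group holds 8 genes of the 19159 that could be named on the arrays, namely SGCB, SGCE, SGCD, DAG1, UTRN, DMD, SNTB1 and SNTB2. They were selected on the measured fall of SGCB when TARBP2 was depleted, and the other 7 were taken because their proteins belong to the same assembly. The change of SGCB between knockdown and control is therefore given as a description, with no test. RNA was measured in MDA-LM2 shDicer cells, which descend from lung metastases of the MDA-MB-231 breast cancer line, 48 h after lipid transfection. Every sample, control or not, carries the Dicer hairpin. There were 2 knockdown arrays, siTARBP2-1 and siTARBP2-2, each with its own siRNA, and 2 control arrays, labelled siControl-1 and siControl-2 and called mock-transfected in the design text. Whether the arrays stem from separate cultures is not stated, and the p-values rest on a spread between arrays that may be technical. In knockdown this spread also holds any difference between the 2 siRNAs.

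Dystroglycan, the product of DAG1, is made as 1 precursor and cut into an outer chain, which holds laminin through its sugar chains, and a chain that crosses the membrane. The inner chain is held by dystrophin (DMD) in muscle or by its relative utrophin (UTRN) in most other cells, and these proteins reach the actin skeleton. Syntrophins (SNTB1, SNTB2) are adaptors that sit on dystrophin or utrophin. Sarcoglycans are membrane glycoproteins that assemble beside dystroglycan: beta-sarcoglycan (SGCB) and delta-sarcoglycan (SGCD) form the core onto which the others are built, and epsilon-sarcoglycan (SGCE) takes the place of the muscle subunit alpha-sarcoglycan (SGCA) in other tissues. Loss of the complex is known for muscular dystrophy, and its laminin link also anchors epithelial cells.

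The arrays were alike in quality. Between 39.1% and 40.8% of 47323 probes had a detection p under 0.01 on each array, and the median intensity lay between 68.1 and 71.0. TARBP2 checks the labels: its brightest probe read 6.11 and 5.79 in knockdown, against control values of 9.27 and 9.25, in normalized log2 intensity, 9.89-fold lower in knockdown (limma adjusted p = 2.12e-10). In the separate processed table the columns stand crosswise to these headings, with TARBP2 higher under the knockdown labels, so directions here follow the headings of the non-normalized table and turn if those are wrong. Of 5 markers of a mesenchymal-like breast line, VIM, CD44, AXL and SPARC were detected and FN1 was not. Of 4 luminal epithelial markers with a named probe, KRT19 was detected on all 4 arrays and GATA3 on 3, while ESR1 and CDH1 were not detected. TNNT1 alone was measured of 11 skeletal muscle markers, and DES and MYOD1 were not above background. Of blood, endothelial and neural markers 1 of 5, 1 of 4 and 2 of 5 were measured. The number of arrays limits the precision, and in bulk RNA fewer cells with a transcript and less transcript per cell cannot be told apart.

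The promoter windows of 3 members with bright probes are shown so that the gene that fell, SGCB, can be set beside DAG1 and SNTB2, which did not pass the test. Each is the 250 bases before the transcription start in RefSeq on GRCh38.p14, written 5′ to 3′ on the strand of the gene. SGCB lies on the minus strand at chr4:52038300-52038549, DAG1 on the plus strand at chr3:49469882-49470131 and SNTB2 on the plus strand at chr16:69186914-69187163. Capitals mark a GC box (GGGCGG) or a CCAAT box (CCAAT) on either strand.

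SGCB: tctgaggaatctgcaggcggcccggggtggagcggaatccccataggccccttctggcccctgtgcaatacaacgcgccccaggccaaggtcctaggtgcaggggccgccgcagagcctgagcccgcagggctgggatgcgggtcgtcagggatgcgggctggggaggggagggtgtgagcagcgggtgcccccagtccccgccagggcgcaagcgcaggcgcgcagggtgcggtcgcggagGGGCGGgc
DAG1: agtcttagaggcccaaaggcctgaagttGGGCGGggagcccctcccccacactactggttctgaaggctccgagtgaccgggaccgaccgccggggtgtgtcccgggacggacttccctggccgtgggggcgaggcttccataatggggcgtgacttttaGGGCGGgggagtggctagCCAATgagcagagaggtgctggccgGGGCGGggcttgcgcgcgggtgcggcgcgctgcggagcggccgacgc
SNTB2: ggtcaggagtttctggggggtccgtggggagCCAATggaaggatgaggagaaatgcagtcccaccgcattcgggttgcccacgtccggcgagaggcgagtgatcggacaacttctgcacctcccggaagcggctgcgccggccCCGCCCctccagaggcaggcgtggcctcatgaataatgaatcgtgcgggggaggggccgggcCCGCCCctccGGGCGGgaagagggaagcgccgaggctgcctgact

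The SGCB window is rich in G and C, at 73.6%, against 70.0% for the DAG1 window shown, 68.0% for SNTB2 and a median of 58.0% over 35116 windows. A second DAG1 window, at chr3:49470017-49470266, overlaps the first and also has 73.6%, with 3 GC boxes and 2 CCAAT boxes, and a UTRN window has 73.2%. The SGCB window holds 1 GC box, at its 3′ end, and no CCAAT box. The DAG1 and SNTB2 windows shown each hold 3 GC boxes and 1 CCAAT box. These counts do not set SGCB apart, since the UTRN window at chr6:144285085-144285334 also holds 1 GC box and no CCAAT box. A GC box is found in 42.6% of all windows and a CCAAT box in 32.0%. None of the 3 windows holds TATAAA, TGACGTCA or CACGTG on either strand, which 10.7%, 1.65% and 6.34% of all windows hold. These matches describe the letters only. Windows were found for 6 of the 8 members, without SGCE and SNTB1.

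The members differed in whether they could be measured at all. They had 20 probes, of which 9 had a detection p under 0.01 on at least 2 arrays, and these 9 covered 7 members. SGCD was not above background: its 3 probes lay between 49.8 and 61.5 on all arrays, with detection p-values of 0.423 or more. For DMD 1 of 8 probes passed, that for NM_004010, at 85.1 and 82.8 in knockdown and 77.9 and 84.1 in control. Its detection p was 0.00519, 0.00779, 0.0104 and 0.00909, so DMD stands at the edge of detection, and the other 7 DMD probes were not detected on any array. The second DAG1 probe, at 59.4 to 68.4, was the next below the limit, with a lowest detection p of 0.119. UTRN had 1 probe, at 112.9 and 110.4 in knockdown and 101.2 and 102.4 in control, and was detected on all 4 arrays. Of the sarcoglycans outside the group, SGCA and SGCZ had 1 probe each and neither was detected.

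**Figure D1:**
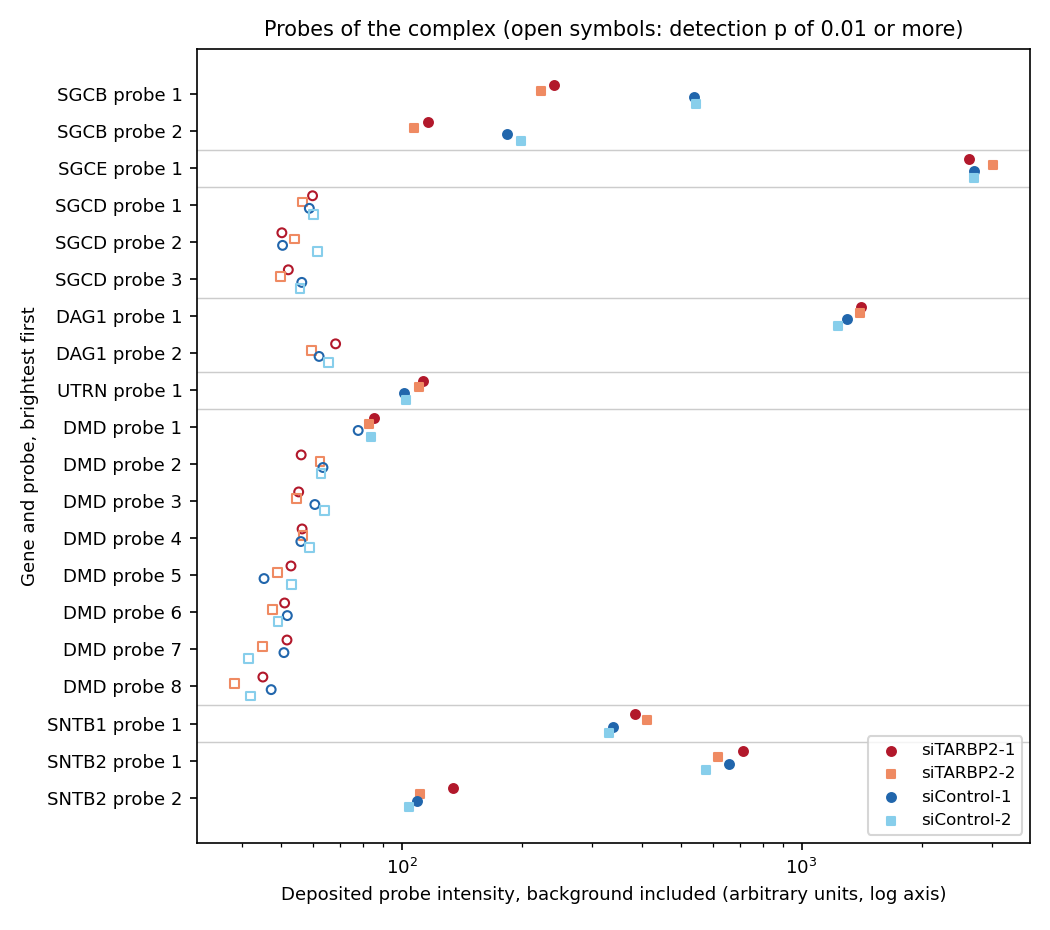
Deposited intensity, with background and on a log axis, of each of the 20 probes of the 8 members on the 4 arrays, where filled symbols had a detection p under 0.01. All probes of SGCD and 7 of the 8 probes of DMD are open on every array, and only the probes of SGCB show knockdown far to the left of control.

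SGCB was lower in knockdown on both of its probes. The brighter probe had deposited intensities of 239.9 with siTARBP2-1 and 223.1 with siTARBP2-2, while siControl-1 read 539.1 and siControl-2 read 543.7. After background correction and normalization these were 7.61 and 7.43 against 8.98 and 9.02 on the log2 scale. Means were 7.52 ± 0.13 (SD, n = 2) after depletion and 9.00 ± 0.03 (SD, n = 2) without it, so the level was 2.80-fold lower, a log2 difference of -1.48. Both knockdown arrays are below both controls, the pattern for which SGCB was chosen.

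The dimmer SGCB probe read 116.3 and 107.5 in knockdown and 183.2 and 198.4 in control, and its log2 difference was -1.17. The 2 probes share an accession, NM_000232, and the same RNA, so they are not independent samples. Each siRNA gave the fall by itself: on the brighter probe the difference from the control mean was -1.39 with siTARBP2-1 and -1.57 with siTARBP2-2. Among the 11265 genes tested SGCB had the fifth lowest change, at rank 5. In the authors' deposited table the value for its accession is -0.76, which was matched to the mean of both probes. The scale of that table compresses low signals.

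Likeness to SGCB over the 4 arrays was measured by the root mean squared difference of log2 values centred on each gene's own mean, and the 5 closest genes include TMEM33, TAPT1, SACM1L and DNAAF9. TMEM33, a membrane protein of the endoplasmic reticulum, differed from SGCB by 0.06 and gave a knockdown minus control of -1.36. TAPT1 differed by 0.08 and gave -1.34, SACM1L, a phosphoinositide phosphatase, differed by 0.10 and gave -1.37, and DNAAF9 differed by 0.11 and gave -1.29. These genes were picked for a fall like that of SGCB, so their changes are a description. None of those named is a member or stands on a list of the complex used here.

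SGCE, whose product is another sarcoglycan, did not follow SGCB. Its deposited intensities were 2627.1 with siTARBP2-1, 3003.6 with siTARBP2-2, 2700.2 with siControl-1 and 2701.4 with siControl-2. The knockdown arrays lie on either side of the controls, and the groups overlap. The log2 fold change was 0.01, with a 95% interval of -0.12 to 0.14 (limma adjusted p = 0.907). A change of the size seen for SGCB lies far outside that interval.

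DAG1, the gene of dystroglycan itself, read 1411.4 and 1397.8 in knockdown and 1298.7 and 1235.0 in control on its detected probe. The normalized log2 values were 10.41 and 10.35 against 10.31 and 10.27. The groups did not overlap, but the log2 fold change of 0.09 did not pass (95% interval -0.04 to 0.22, limma adjusted p = 0.284).

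Neither gene of the actin-linking proteins passed. UTRN gave 6.11 and 6.02 in knockdown and 5.89 and 5.90 in control on the normalized log2 scale, a log2 fold change of 0.17 with a 95% interval of -0.13 to 0.47 (limma adjusted p = 0.383). DMD gave 5.37 and 5.28 against 5.18 and 5.32, a log2 fold change of 0.08 with an interval of -0.31 to 0.47 (limma adjusted p = 0.783). Both probes are dim, and their intervals are the widest among the 7 measured members.

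The syntrophins gave the only call among the measured members other than SGCB. SNTB1, which encodes beta-1-syntrophin and lies on chromosome 8, read 382.9 and 410.8 in knockdown and 337.6 and 329.2 in control. In normalized log2 intensity these were 8.41 and 8.46 against 8.23 and 8.20, so every knockdown value was above every control value. The rise was 0.22 with a standard error of 0.07, or 1.16-fold (95% interval 0.06 to 0.38, limma adjusted p = 0.0379). It rests near the threshold. The adjusted p was 0.0517 with all detected probes adjusted together, 0.0890 with no detection filter and 0.0558 without a variance trend. Leaving out siTARBP2-1, siTARBP2-2, siControl-1 or siControl-2 gave 0.0766, 0.156, 0.0965 and 0.149, each past 0.05.

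SNTB2, which encodes beta-2-syntrophin, gave 9.39 and 9.10 in knockdown and 9.27 and 9.11 in control on its brighter probe, with overlapping groups. The log2 fold change was 0.06 (95% interval -0.14 to 0.25, limma adjusted p = 0.681). Its dimmer probe gave 6.50 and 6.04 against 6.09 and 5.95. On both probes siTARBP2-1 was the highest array.

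Of the 6 measured members other than SGCB, 1 was called higher and 0 lower by limma, and 0 had a lower value with an unadjusted p under 0.05. Over all 11265 genes 17.1% were called higher and 17.1% lower, and 4947 had an unadjusted limma p under 0.05 in either direction. The higher share of calls was 49.9%, and 66.2% with median scaling in place of quantile normalization. The median log2 fold change of these 6 was 0.08, against -0.01 over all genes, and their values ran from 0.01 to 0.22. The groups did not overlap for 3 of the 6, beside 67% of all genes. Nothing is read from these counts, because the contrast is the one that chose SGCB.

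**Figure D2:**
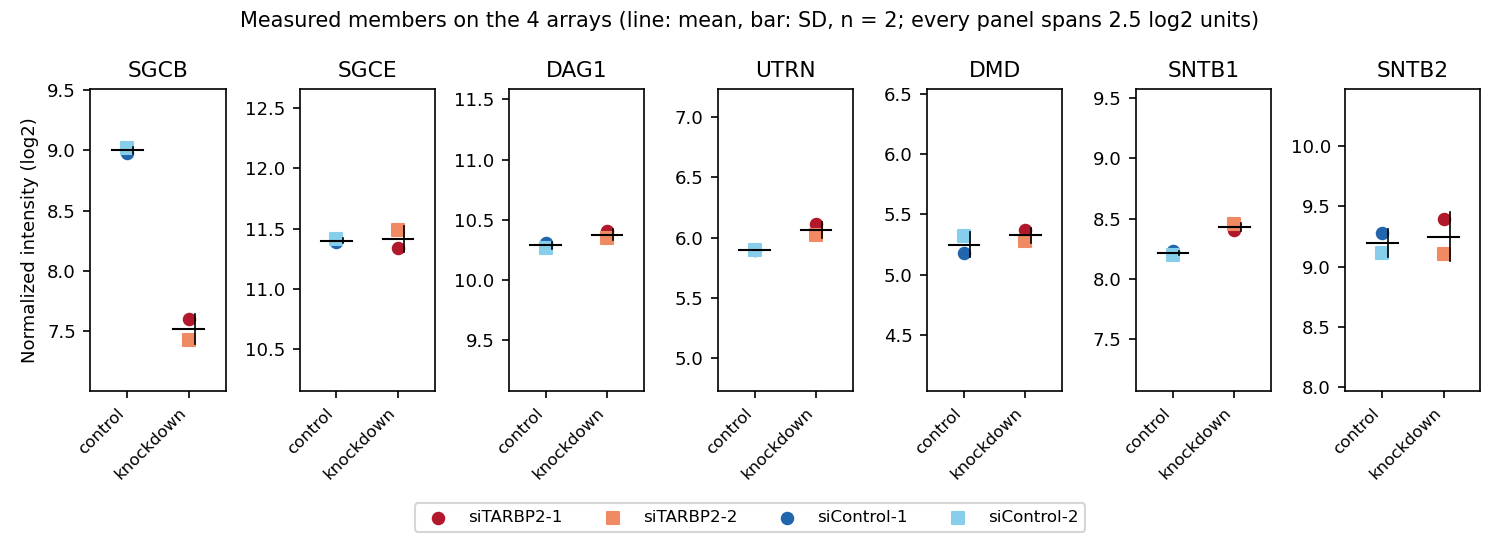
Normalized log2 intensity of the 7 measured members on the 4 arrays, on axes of equal span, with the mean as a line and the SD as a bar (n = 2). SGCB falls from 9.00 to 7.52, while the knockdown means of the other members lie within 0.22 of their control means.

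The siRNAs were also compared with each other, a contrast that the choice of SGCB did not use. Each side is 1 array, and the spread comes from the 2 controls, and the knockdown arrays are assumed to vary as those do. Of the 7 measured members 0 differed by limma after adjustment, beside 0.0178% of all genes, and 1 had an unadjusted p under 0.05. That member was SNTB2, 0.29 higher with siTARBP2-1 on the log2 scale (95% interval 0.06 to 0.52, limma adjusted p = 0.846). SGCB differed by 0.18 (95% interval -0.06 to 0.42, limma adjusted p = 0.893), a small part of its fall with either siRNA. SGCE was 0.15 lower with siTARBP2-1, at -0.15 with an interval of -0.30 to 0.0050 (limma adjusted p = 0.863). DAG1, UTRN, DMD and SNTB1 differed by 0.06, 0.09, 0.09 and -0.05.

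The genes that flank the members on the chromosome were examined next. SGCB spans chr4:52020706-52038299 on GRCh38.p14, with LRRC66 only 342 bases below it and SPATA18 above it by 13004 bases. Neither neighbour was detected, so the fall of SGCB could not be set beside theirs. Of the 16 nearest protein-coding genes of all members 9 were measured, and 2 were called higher and 2 lower, beside 17.1% each way over all genes.

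The clearest change among them was at SGCE. PEG10, an imprinted gene derived from a retrotransposon, starts 191 bases from SGCE, which is imprinted too, on chromosome 7. PEG10 read 621.3 and 701.2 in knockdown and 469.4 and 437.7 in control. In normalized log2 values these were 9.17 and 9.30 against 8.76 and 8.68, with no overlap. It rose by 0.52 with a standard error of 0.07 (95% interval 0.36 to 0.68, limma adjusted p = 1.41e-04), an interval that does not meet that of SGCE. The difference between both genes was not tested directly. A second PEG10 probe, for NM_015068, was not above background.

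The other calls near the members were small. VPS4A, an ATPase of membrane scission next to SNTB2, rose by 0.23 (limma adjusted p = 0.0300). NICN1, next to DAG1, gave -0.21 (limma adjusted p = 0.0405), and STX11, a syntaxin next to UTRN, gave -0.24 (limma adjusted p = 0.0243). None of the calls of these 3 held under every alternative. With no detection filter their limma adjusted p-values were 0.0730, 0.0761 and 0.0626, in the order given. Without siControl-2 they were 0.179, 0.262 and 0.176, and without siTARBP2-1 they were 0.140, 0.159 and 0.122. Without siTARBP2-2 those of VPS4A and NICN1 were 0.0631 and 0.0739. With median scaling NICN1 gave -0.13 (0.319) and STX11 an adjusted p of 0.158.

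**Figure D3:**
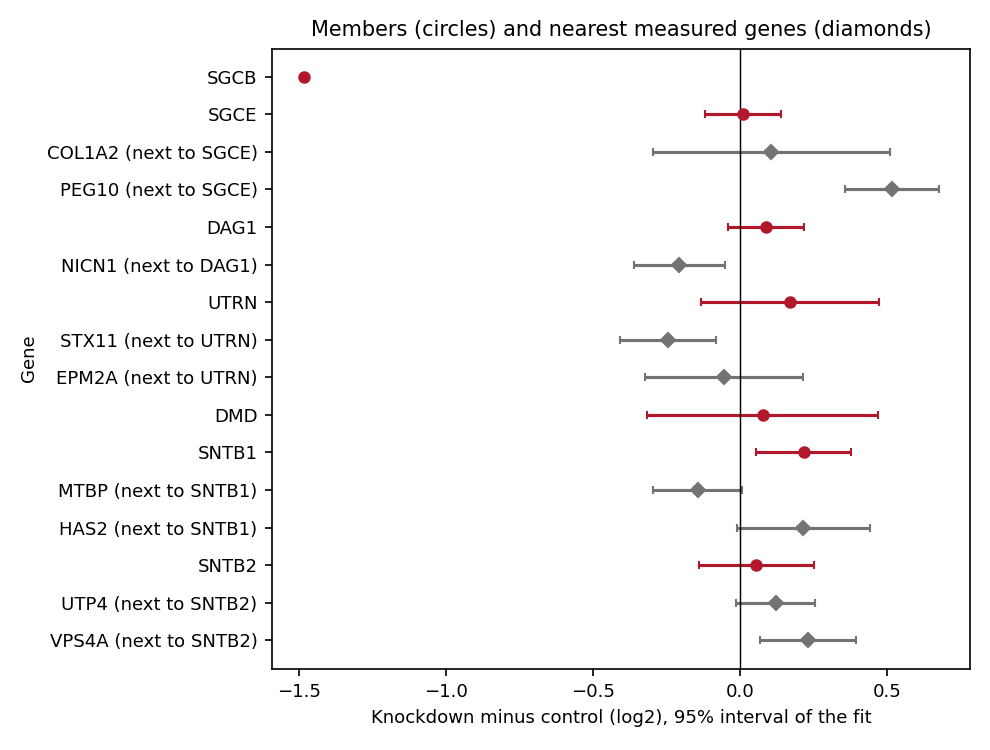
Knockdown minus control in log2 units for the 7 measured members (circles) and the 9 measured nearest genes (diamonds), with the 95% interval of the fit except for SGCB, which was chosen for its fall. SGCB stands alone at -1.48, and PEG10 at 0.52 lies apart from its neighbour SGCE at 0.01.

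The other proteins of the assembly were mostly not measurable. Of 12 listed subunits and partners 3 passed the detection filter, 1 of them rose and 1 fell, beside 17.1% each way over all genes, with a median log2 fold change of 0.02. SSPN, which encodes sarcospan, a membrane protein bound to the sarcoglycans, read 111.1 and 110.9 in knockdown and 89.1 and 81.6 in control. It rose by 0.66 ± 0.17 (SE, limma adjusted p = 0.00758), and by 0.36 with no background correction. The array on which it was not detected was siControl-2, so the size of the rise rests partly on a value not above background. Its adjusted p passed 0.05 without siTARBP2-1 (0.0565), siTARBP2-2 (0.0530) or siControl-2 (0.0684). DTNA, which encodes alpha-dystrobrevin, a relative of dystrophin that binds syntrophins, gave 8.52 and 8.54 against 8.93 and 8.80 in control. On the log2 scale it fell by 0.34 ± 0.07 (SE, limma adjusted p = 0.00308), and its 2 dimmer probes gave -0.20 and -0.28.

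Among genes that build the laminin-binding sugar chain of dystroglycan, 15 of 18 were measured, 1 rose, 5 fell and 9 did not pass, beside 17.1% called each way over all genes. At least 3 of the falls, those of B4GAT1, GMPPB and POMT1, did not pass with median scaling. Their median log2 fold change was -0.15, against -0.01 over all genes. DOLK, which makes dolichol phosphate, gave 9.51 and 9.51 in knockdown and 9.82 and 9.79 in control, a fall of 0.29 (limma adjusted p = 0.00264). GMPPB, which makes the mannose donor, gave -0.28 (limma adjusted p = 0.0170), and B4GAT1, which primes the matriglycan chain, gave -0.27 (limma adjusted p = 0.00949).

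The enzymes that attach the first mannose split. POMT1 gave -0.24 (limma adjusted p = 0.0449), while POMT2, its partner in the same enzyme, rose by 0.33, with 9.93 and 9.97 in knockdown and 9.70 and 9.55 in control (limma adjusted p = 0.00223). With median scaling in place of quantile normalization, the adjusted p of B4GAT1, GMPPB and POMT1 was 0.0674, 0.0891 and 0.196. The same 3 calls ended without siTARBP2-2 (0.0669, 0.113 and 0.192) and without siControl-2 (0.110, 0.167 and 0.419). Without siTARBP2-1 that of POMT1 was 0.0803. The fall of DOLK and the rise of POMT2 kept their calls in each alternative run, with the sign turned where the series matrix was taken as labelled.

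Of 17 listed ligands of dystroglycan 11 were measured, and 3 rose and 1 fell, beside 17.1% called each way over all genes. The median log2 fold change of the list was 0.09. LAMA4, the laminin alpha-4 chain, read 258.7 and 304.7 in knockdown and 170.2 and 171.9 in control on its brighter probe. It rose by 0.83 with a standard error of 0.10, or 1.78-fold (limma adjusted p = 2.66e-05), and its other probe gave 0.79. LAMB3, a laminin beta chain of epithelia, rose by 0.25 (limma adjusted p = 0.00609), with an adjusted p of 0.0644 without siTARBP2-2, where the rise was 0.16, and of 0.0799 without a variance trend. LAMA5, the laminin alpha-5 chain, gave 12.41 and 12.44 against 12.66 and 12.72 in control, a fall of 0.26 (limma adjusted p = 0.00117).

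Among 12 listed cytoskeletal and scaffold partners 11 were measured, and 3 rose and 1 fell, beside 17.1% called each way over all genes. The median log2 fold change of the list was 0.03. KRT19 and KRT8, keratins of which KRT19 binds dystrophin in muscle, rose by 1.04 and 0.70 (limma adjusted p = 1.82e-07 and 2.17e-06). The ankyrins hold dystroglycan and dystrophin at the membrane. ANK2 gave 7.48 and 7.18 in knockdown and 6.81 and 6.90 in control, a rise of 0.48 (limma adjusted p = 0.00553), with an adjusted p of 0.0911 without siTARBP2-1. ANK3 gave -0.37 (limma adjusted p = 0.0487), but its other detected probe gave 0.13, the mean of the probes gave -0.12 (adjusted p = 0.613), and its call ended when any 1 array was left out (adjusted p 0.0765 to 0.233). Of 2 proteases reported to cut dystroglycan only MMP9 was measured, at 0.23 (limma adjusted p = 0.330), and MMP2 was not above background. KRT19 also stands on the luminal epithelial list, whose only other measured gene, GATA3, did not pass (limma adjusted p = 0.162). Their summed level, which is mostly KRT19, was 749 to 780 in knockdown and 382 to 390 in control, in normalized intensity. GATA3 was near background, at 5.57 and 5.52 in knockdown and 5.32 and 5.10 in control in normalized log2 intensity. ESR1 and CDH1 were not above background. TNNT1, the only measured gene of the muscle list, rose by 0.32 (limma adjusted p = 0.00925, and 0.104 without siControl-1), at 339 to 341 against 256 to 291 on the same scale. On the list of the line itself 2 of 4 measured genes rose, beside 17.1% of all genes, with a median of 0.11. SPARC rose most, by 0.72, while VIM and AXL, at 0.06 and 0.09, did not pass. The part of any of these in the values above was not tested.

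**Figure D4:**
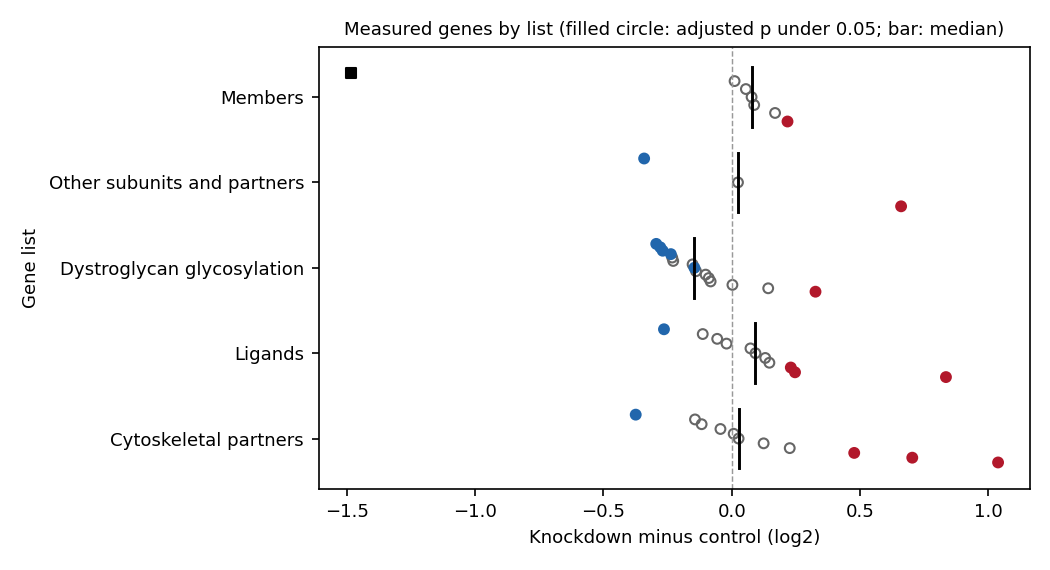
Knockdown minus control in log2 units for every measured gene of the complex and of 4 related lists, filled where the limma adjusted p was under 0.05, with SGCB as a black square and a bar at each list's median. SGCB at -1.48 lies lower than every other gene shown. The glycosylation list has 5 called falls and 1 called rise around a median of -0.15, beside 17.1% called each way over all genes. The falls of B4GAT1, GMPPB and POMT1 did not pass with median scaling.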

How the data were processed

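The authors deposited, per the file headers, the intensity of each probe on each of the 4 Illumina arrays before normalization and a detection p-value beside it. They also deposited intensities of the series matrix, normalized by a method not given in the sources used here, and a table with 1 log2-like fold change per accession, whose log base and direction are not given. The submitters' processing notes name lumi.

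Probes were named by value. When series matrix intensities are put through a scaled asinh and averaged by group, the difference gives the authors' deposited fold changes within 1e-09, and probes of a gene stand together in the table. This joined 39301 of 39747 accessions, 33118 to 1 probe and 6183, with that of SGCB, to the mean of several. After a small shift of the values only 18 joined to 1 probe. No such count is given for runs of adjacent probes. RefSeq named 27684 probes. With groups exchanged 33131 probes matched, and as labelled 13. Columns of the series matrix were closest to arrays labelled with the opposite group (r at least 0.9997, against at most 0.9971), so the headings of the non-normalized table were kept for all directions given.

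Intensities were background-corrected, quantile-normalized and log2-transformed with neqc (offset 16; limma 3.58.1, R 4.3.3). A detection p under 0.01 was required on at least 2 arrays, which left 19295 probes, and the brightest stood for each of 11265 genes. Groups were compared with two-sided moderated tests (lmFit, eBayes, variance trend), adjusted after Benjamini-Hochberg over all genes at 0.05, and single siRNAs in a fit of 3 groups. An exact permutation of 2 against 2 arrays cannot go below 0.333. In simulated data for knockdown against control over 11265 genes, 100 of 100 changes of 0.75 and 100 of 100 of 1.5 were recovered, beside 21 false calls. Independent noise was drawn from the variances of the same fit, with 200 changed genes. The simulation therefore checks the procedure and not the precision of these arrays. Its 21 false calls were a larger share of all its calls than the threshold of 0.05 aims at. Calls with an adjusted p just under 0.05 are therefore less sure than that figure says. Members and lists were chosen with earlier results of these data known. The genes named are the members, listed genes past the threshold, nearest genes past it, the 5 most like SGCB, and TARBP2, MMP9 and TNNT1, less a few that are not reported here. Alternatives changed normalization, background, filter, probe choice, variance model, block, table and arrays. Replicate numbers did not pair the samples (correlation of deviations -5.55e-04).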

Additional observations from a re-analysis of the deposited data

How the results depend on the processing

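Of the 11265 genes, 3851 were called between knockdown and control by limma, 3388 with median scaling, 2755 without a variance trend, and between 2576 and 3059 when 1 array was left out and the filter applied to the other 3. With no detection filter more genes were tested and 2974 were called. With the replicate number as a block the count was 3862, and the block changed no call of a named gene. The numbers only name the samples (correlation of deviations -5.55e-04). SNTB1, the 1 member called higher, was not called with no detection filter, without a variance trend, or when 1 array was left out, which gave counts of 0. The count for siTARBP2-1 against the controls went from 2783 to 592 without a trend, and that for siTARBP2-2 from 3058 to 763, or 2030 with no filter. Between the siRNAs 2 genes were called, 21 with median scaling, 4 with cyclic loess, and 0 under a robust trend, no trend, averaged probes, no filter, or a filter that asks for all 4 arrays. With 1 array left out the sign turned for SNTB2 (-0.0894 to 0.2001) and SGCE (-0.0633 to 0.086). In these fits the lone array of a group is assumed to vary like the others. The processed table taken as labelled turned every sign by its own construction, since its groups are crossed, with log2 differences as follows: TARBP2 2.57, SGCB 1.28, SGCE -0.0147, DAG1 -0.0888, UTRN -0.0949, DMD -0.0359, SNTB1 -0.19, SNTB2 -0.0534, SSPN -0.34, DTNA 0.31, POMT1 0.22, POMT2 -0.31, B4GAT1 0.25, DOLK 0.27, GMPPB 0.24, LAMA4 -0.65, LAMA5 0.28, LAMB3 -0.25, ANK2 -0.35, ANK3 0.22, KRT8 -0.68, KRT19 -0.96, MMP9 -0.12, TNNT1 -0.27, PEG10 -0.48, NICN1 0.19, STX11 0.22, VPS4A -0.21, TMEM33 1.20, TAPT1 1.09, SACM1L 1.30, DNAAF9 1.06. The cause of the other changes was not tested. Median scaling moved the median of all genes from -0.01 to 0.04. All kept probes adjusted together was chosen after seeing the data. Dim probes limit UTRN, DMD and SSPN, and SGCD was not measurable.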
